A study of Mus musculus with 6 samples.

Results

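Luminal epithelial identity and polarity genes were examined in sorted cells of mouse mammary tumours. The list held 33 genes, chosen with earlier results of these arrays known, and covered cell-surface proteases, transcription and splicing factors, junction and trafficking proteins, apical channels and secreted proteins of gland-forming epithelium. A gene was included when the platform annotation gave a probe set (a group of short probes for a transcript) that single symbol, and the brightest such probe set, by its mean on all 6 arrays, stood for it. The list was chosen by values of the same comparison described here, tumorigenic against nontumorigenic label, so the direction of its members is no finding. In this way 32 of the 33 genes were found among 15027 genes on the arrays. Trf, the iron carrier transferrin, shares its probe set with another symbol and is not reported.

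The tumours came from MMTV-Wnt-1 mice, in which the promoter of mouse mammary tumour virus drives Wnt1 in mammary epithelium. From each of 3 mice, a population labelled tumorigenic was sorted by fluorescence for cells that carry CD24 and Thy but lack CD45, and the other population, labelled nontumorigenic, has a description that negates that gate without settling whether the negation extends to CD45. Age, strain background and tumour stage were not given in the sources used here, both populations carried the transgene, and no normal mammary gland was compared. With 1 array for each population of a mouse there were 3 arrays against 3, and both labels came from the same 3 animals. The comparison asks what sets the cells labelled tumorigenic apart from other cells of the same tumours.

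Secretory and ductal epithelium is polarised. Crumbs and Par protein complexes mark the apical side, tight junctions seal the cells below it, and the AP-1 adaptor, Rab GTPases and class V myosins carry proteins to the correct face. Grainyhead-like and Ovol transcription factors keep epithelial genes active, the Esrp proteins direct epithelial splice forms, and Zeb and Snai factors repress many epithelial genes by binding E-boxes in their promoters. The proteases matriptase and prostasin and their Kunitz-type inhibitors act at the surface of the same cells. In the mammary gland many of these genes are known for higher expression in the luminal than in the basal layer.

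Promoter sequences of members are shown because the repressors named above bind E-boxes in promoters. Whether the letters bear on the values of the members was not tested. RefSeq promoter windows of build GRCm38.p6, each of 300 bases from 250 before to 50 after a transcription start, were matched by symbol for 24 of the 33 members, in 27 windows. The members with no entry were St14, Prss8, Esrp1, Esrp2, Grhl2, Ovol1, Marveld3, Clic6 and Trf. The E-box letters CACCTG, searched on both strands, were present in 18 of 27 member windows (66.7%), against 20.2% of all 32851 windows. Of the members with an entry, 15 of 24 held such a match. In 9 members it lay within 100 bases before the start. These stretches are printed 5′ to 3′ on the strand of the gene, with each CACCTG, or CAGGTG where the match is on the other strand, in capitals.
Ap1m2, chr9:21312334-21312433, minus strand: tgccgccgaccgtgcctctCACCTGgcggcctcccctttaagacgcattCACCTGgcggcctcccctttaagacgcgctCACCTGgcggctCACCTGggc
Apol7a, chr15:77399111-77399210, minus strand: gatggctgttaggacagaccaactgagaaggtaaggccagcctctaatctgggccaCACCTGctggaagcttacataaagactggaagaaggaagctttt
Crb3, chr17:57062101-57062200, plus strand: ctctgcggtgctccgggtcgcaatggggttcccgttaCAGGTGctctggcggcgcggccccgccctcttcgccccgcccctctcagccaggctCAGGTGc
Lsr, chr7:30973470-30973569, minus strand: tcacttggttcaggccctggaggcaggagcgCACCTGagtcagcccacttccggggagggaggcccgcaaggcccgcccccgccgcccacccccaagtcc
Muc1, chr3:89228956-89229055, plus strand: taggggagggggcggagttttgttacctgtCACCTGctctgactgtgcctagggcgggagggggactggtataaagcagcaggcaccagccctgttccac
Pigr, chr1:130826584-130826683, plus strand: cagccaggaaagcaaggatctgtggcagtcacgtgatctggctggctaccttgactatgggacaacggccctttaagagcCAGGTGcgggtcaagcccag
Rab25, chr3:88548280-88548379, minus strand: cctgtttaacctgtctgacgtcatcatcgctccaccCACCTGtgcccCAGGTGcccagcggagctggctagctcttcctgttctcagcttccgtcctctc
Spint2, chr7:29281978-29282077, minus strand: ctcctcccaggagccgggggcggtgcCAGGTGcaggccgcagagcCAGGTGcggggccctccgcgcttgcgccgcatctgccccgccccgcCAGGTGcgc
Tspan1, chr4:116167599-116167698, minus strand: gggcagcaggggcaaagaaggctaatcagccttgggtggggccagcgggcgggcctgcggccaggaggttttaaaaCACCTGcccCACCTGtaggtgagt

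Ap1m2 held 4 copies of the letters in these 100 bases, Spint2 held 3, and Crb3, Rab25 and Tspan1 held 2 each. Members are divided below into those whose arrays did not overlap between the labels and those whose arrays did. E-box letters occurred in 9 of the 13 members of the first kind that had a window, and in 6 of the 11 of the second kind. The grainyhead-type letters AACNGGTT, also searched on both strands, were present in 2 of 27 member windows (7.41%), against 2.09% of all windows. These belong to Muc1, with the match 180 to 173 bases before the start, and Rab25, with the match 102 to 95 bases before it and on the other strand. Both are printed with the match in capitals.
Muc1, chr3:89228850-89228909, plus strand: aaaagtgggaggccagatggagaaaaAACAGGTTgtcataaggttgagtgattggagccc
Rab25, chr3:88548348-88548407, minus strand: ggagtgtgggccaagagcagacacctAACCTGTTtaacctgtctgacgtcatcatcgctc

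On both strands, the ETS core letters AGGAAG were present in 15 of 27 member windows (55.6%), against 35.4% of all windows. The STAT-type letters TTCNNNGAA were present in 3 of 27 (11.1%), against 8.30% of all windows, and in Syne4 such a match overlapped an AGGAAG match. No binding was measured, and a match describes letters only.

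The arrays were first checked against their labels. Ptprc, which encodes CD45, read 10.21, 7.76 and 3.82 in the labelled tumorigenic arrays of mice 1, 2 and 3, against 2.34, 3.59 and 2.51 in the labelled nontumorigenic arrays, on the log2 scale of RMA values used for every level here. On this probe set it was therefore high in 2 arrays of a gate that excluded CD45. A dimmer probe set of Ptprc read 7.05, 3.84 and 2.66 in labelled tumorigenic arrays, against 2.62, 2.62 and 2.74 in labelled nontumorigenic arrays. On that one mouse 1 was far above the labelled nontumorigenic arrays, mouse 2 was less far above them, and mouse 3 lay within their range. On its brightest probe set Cd24a read 11.85, 12.34 and 12.84 in the labelled tumorigenic arrays, against 12.86, 12.84 and 12.99 in the labelled nontumorigenic arrays. There no labelled tumorigenic array lay above any labelled nontumorigenic array. On the dimmer probe sets of Cd24a the labelled tumorigenic array of mouse 3 lay above the labelled nontumorigenic array of mouse 2. The labelled tumorigenic arrays of mice 1 and 2 lay below every labelled nontumorigenic array on them. The mean of 15 leukocyte markers was 10.02, 8.39 and 5.41 in the labelled tumorigenic arrays of mice 1, 2 and 3, against 4.39, 4.36 and 4.40 in the labelled nontumorigenic arrays. Of these markers 14 of 15 had positive differences between the labels, 12 of them with an unadjusted limma p below 0.05, where 8.5% of all genes had one, and none was below the dim limit of 2.98 in all 3 arrays of a label. Endothelial markers read 7.55, 7.93 and 7.27 in labelled tumorigenic arrays, against 6.48, 5.90 and 5.91 in labelled nontumorigenic arrays, with 10 of 10 higher under the tumorigenic label. Basal markers read 8.75, 8.96 and 9.89 in labelled tumorigenic arrays, against 8.95, 9.02 and 8.54 in labelled nontumorigenic arrays, with their highest mean in the labelled tumorigenic array of mouse 3. Adipocyte markers, 5 of 5 with positive differences, read 5.72, 8.22 and 6.20 in labelled tumorigenic arrays, against 4.31, 4.67 and 4.68 in labelled nontumorigenic arrays, with their highest mean in mouse 2. Fibroblast markers read 10.63, 10.62 and 8.93 in labelled tumorigenic arrays, against 9.49, 10.23 and 10.03 in labelled nontumorigenic arrays, with a lower mean in mouse 3 alone of the labelled tumorigenic arrays. In bulk RNA, fewer cells of a type and less RNA per cell cannot be told apart, and the part of the leukocyte, endothelial and adipocyte transcripts in the values below was not tested. The control probe set for the 3′ end of 18S rRNA read 7.76, 6.32 and 7.38 in the labelled tumorigenic arrays, against 8.97, 8.52 and 8.66 in the labelled nontumorigenic ones.

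Members were lower under the tumorigenic label almost throughout. Of the 32 genes, 31 had a negative log2 difference (labelled tumorigenic mean minus labelled nontumorigenic mean), where 49.3% of all genes did. The median difference was -1.18, against 0.0051 over all 15027 genes, and the members ranged between -3.40 for Apol7a and 0.45 for Cds1. Within mice 1, 2 and 3 the member medians were -2.09, -0.86 and -0.97. A total of 23 members were lower in all 3 mice, where 14.3% of all genes were. In 16 members every labelled tumorigenic array lay below every labelled nontumorigenic array, where 5.59% of all genes did so, and 0 members lay wholly above, where 6.9% did. These values chose the members, so they are a description and no p-value is attached to them. Across all genes, limma called 0.0% at an adjusted p below 0.05, that is 0 of 15027, and 1277 genes had an unadjusted limma p below 0.05.

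**Figure D1:**
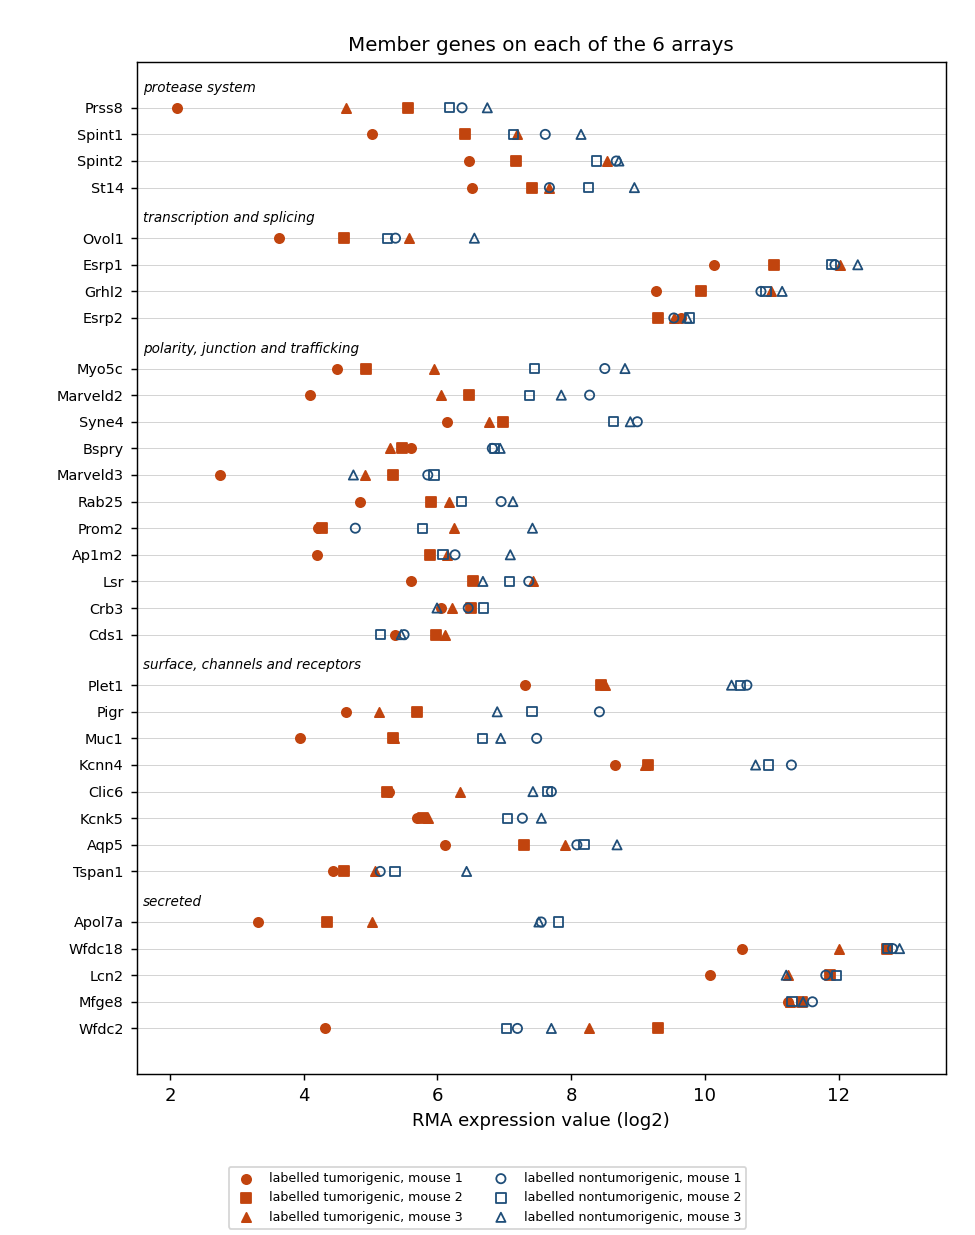
RMA values (log2, horizontal axis) of the 32 members on each array, with filled symbols for the 3 labelled tumorigenic arrays and open symbols for the 3 labelled nontumorigenic arrays, and 1 symbol shape per mouse. Genes such as Apol7a, Kcnn4, Syne4 and Plet1 have a gap between the filled and open symbols, while Esrp2, Mfge8 and Crb3 have none and Wfdc2 has 2 filled symbols above the open ones and 1 far below. Positions of different genes on the axis are not comparable.

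The surface protease system had lower values in each of its 4 members, with a median difference of -1.31, and all 4 were lower in all 3 mice. Prss8, which encodes the anchored protease prostasin, read 2.11, 5.56 and 4.63 in the labelled tumorigenic arrays of mice 1, 2 and 3, against 6.37, 6.18 and 6.75 in the labelled nontumorigenic arrays. Its arrays did not overlap, and the value of mouse 1 was below the dim limit, so the size of its difference, -2.33, is rough. St14, the matriptase gene, read 6.51, 7.41 and 7.67 in the labelled tumorigenic arrays, against 7.67, 8.26 and 8.94 in the labelled nontumorigenic arrays, a difference of -1.10. Its arrays were apart only beyond the second decimal, since the array of mouse 3 under the tumorigenic label and that of mouse 1 under the other label both round to 7.67. The inhibitors Spint1 and Spint2 overlapped through mouse 3. Spint1 read 5.01, 6.41 and 7.18 in the labelled tumorigenic arrays, against 7.61, 7.13 and 8.15 in the labelled nontumorigenic ones, and Spint2 read 6.46, 7.17 and 8.53 in labelled tumorigenic arrays, against 8.67, 8.37 and 8.71 in labelled nontumorigenic arrays. Both probe sets of Spint2 gave like differences, -1.20 and -1.23.

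The 4 transcription and splicing factors had a median of -0.94, and 0 of them had arrays that did not overlap. Grhl2, a grainyhead-like factor that sustains Cdh1 and other junction genes, read 9.27, 9.94 and 10.99 in the labelled tumorigenic arrays of mice 1, 2 and 3, against 10.84, 10.91 and 11.15 in the labelled nontumorigenic arrays. Esrp1, an epithelial splicing factor, read 10.13, 11.03 and 12.02 in labelled tumorigenic arrays, against 11.94, 11.89 and 12.28 in labelled nontumorigenic arrays. For both genes the labelled tumorigenic array of mouse 3 lay within the range of the other label while those of mice 1 and 2 lay below it. Ovol1 encodes a zinc-finger repressor of mesenchymal genes. Its brighter probe set read 3.64, 4.60 and 5.57 in labelled tumorigenic arrays, against 5.37, 5.25 and 6.55 in labelled nontumorigenic arrays, the same pattern. A second probe set of like brightness read 3.68, 5.57 and 5.12 in labelled tumorigenic arrays, against 4.83, 5.12 and 6.48 in labelled nontumorigenic arrays. Its difference was -0.69, and on it mouse 1 alone lay below the range of the other label. Esrp2, the relative of Esrp1, depended on its probe set. Its brighter one read 9.64, 9.30 and 9.53 in labelled tumorigenic arrays, against 9.53, 9.77 and 9.73 in labelled nontumorigenic arrays, a difference of -0.19, while the dimmer one read 5.60, 6.25 and 7.55 in the labelled tumorigenic arrays, against 8.48, 8.38 and 8.17 in the labelled nontumorigenic ones, a difference of -1.88 with no overlap. The other probe sets of Grhl2 above the dim limit gave -0.20, -1.15 and -0.35, all at low levels.

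Polarity, junction and trafficking genes ranged most widely. Of 11 members, 10 had negative differences, 5 had arrays that did not overlap, and the median difference was -1.17. Myo5c, a class V myosin of secretory epithelia, read 4.50, 4.93 and 5.95 in the labelled tumorigenic arrays of mice 1, 2 and 3, against 8.50, 7.45 and 8.80 in the labelled nontumorigenic arrays, a difference of -3.13. Syne4, a nesprin that links the nucleus of secretory cells to kinesin, read 6.14, 6.97 and 6.78 in labelled tumorigenic arrays, against 8.99, 8.63 and 8.88 in labelled nontumorigenic arrays, a difference of -2.20. A dimmer probe set of Syne4 gave only -0.46, also without overlap, and averaging both gave -1.33. Marveld2, which encodes tricellulin at the corners where cells meet, read 4.09, 6.47 and 6.06 in labelled tumorigenic arrays, against 8.27, 7.38 and 7.85 in labelled nontumorigenic arrays, a difference of -2.29. All 3 genes were lower in every mouse, and for Marveld2 mouse 1 was much the lowest. Bspry, a B-box and SPRY domain protein of epithelia, read 5.60, 5.47 and 5.29 in the labelled tumorigenic arrays, against 6.82, 6.85 and 6.94 in the labelled nontumorigenic arrays. Its arrays were close together under each label, and its difference was -1.41, although a dimmer probe set gave only -0.086. Rab25, an epithelial relative of Rab11, also did not overlap, at 4.84, 5.90 and 6.18 in labelled tumorigenic arrays, against 6.95, 6.36 and 7.13 in labelled nontumorigenic arrays.

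The remaining members of this role overlapped. Lsr, which recruits tricellulin, read 5.60, 6.53 and 7.43 in the labelled tumorigenic arrays of mice 1, 2 and 3, against 7.37, 7.08 and 6.68 in the labelled nontumorigenic arrays, so that mouse 3 was higher under the tumorigenic label and mice 1 and 2 lower. Marveld3, another tight junction protein, read 2.75, 5.34 and 4.92 in labelled tumorigenic arrays, against 5.86, 5.95 and 4.74 in labelled nontumorigenic arrays, with mouse 1 below the dim limit. A second probe set of Marveld3, near that limit, gave a difference of -0.25. Ap1m2, the epithelial medium subunit of the AP-1 adaptor, had differences of -2.06, -0.20 and -0.95 within mice 1, 2 and 3, and Prom2, a prominin of membrane protrusions, had -0.56, -1.50 and -1.18. A second probe set of Prom2, near the dim limit, gave -0.085 between the label means. Crb3, the Crumbs protein of the apical membrane, showed the smallest difference of this role, -0.13, with 6.05, 6.50 and 6.22 in the labelled tumorigenic arrays, against 6.46, 6.69 and 5.99 in the labelled nontumorigenic arrays, and its other probe sets gave -0.25 and -0.14. Cds1, an enzyme of phospholipid synthesis, was the member with a positive difference. It read 5.37, 5.98 and 6.11 in the labelled tumorigenic arrays, against 5.50, 5.14 and 5.46 in the labelled nontumorigenic arrays, higher in mice 2 and 3 and lower in mouse 1, and its second probe set also gave a positive difference, 0.38.

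Surface proteins, channels and receptors were lower under the tumorigenic label on the probe sets that stood for them. On these, all 8 members were lower in all 3 mice, all 8 had arrays that did not overlap, and their median difference was -2.00. Kcnn4, a calcium-activated potassium channel, read 8.66, 9.15 and 9.10 in the labelled tumorigenic arrays of mice 1, 2 and 3, against 11.29, 10.94 and 10.76 in the labelled nontumorigenic arrays. Its difference was -2.03, a level 4.08-fold lower, and its second probe set gave -1.56. Kcnk5, a pore-domain potassium channel, read 5.70, 5.78 and 5.86 in labelled tumorigenic arrays, against 7.27, 7.05 and 7.55 in labelled nontumorigenic arrays, a difference of -1.51 with an SD of 0.081 over the labelled tumorigenic arrays and 0.25 over the labelled nontumorigenic ones. The labelled tumorigenic arrays of the 3 mice were thus close together. Plet1, a surface protein of placenta and epithelia, read 7.30, 8.44 and 8.50 in the labelled tumorigenic arrays, against 10.63, 10.53 and 10.40 in the labelled nontumorigenic arrays, a difference of -2.44, or -2.72 on a second probe set and -0.094 on another near the dim limit. Pigr, which carries polymeric immunoglobulin across the epithelium into milk, read 4.63, 5.70 and 5.12 in labelled tumorigenic arrays, against 8.42, 7.41 and 6.89 in labelled nontumorigenic arrays, a difference of -2.43, or -1.35 on a second probe set. Muc1, the apical mucin, read 3.95, 5.34 and 5.35 in labelled tumorigenic arrays, against 7.48, 6.68 and 6.95 in labelled nontumorigenic arrays, a difference of -2.16. For both Pigr and Muc1 the gap was widest in mouse 1. Clic6, of the chloride intracellular channel family, read 5.27, 5.24 and 6.34 in the labelled tumorigenic arrays, against 7.70, 7.64 and 7.43 in the labelled nontumorigenic arrays, and its second probe set gave -1.68. The water channel Aqp5 and the tetraspanin Tspan1 had smaller differences, -1.22 and -0.95, with narrow gaps between the labels. The second probe set of Tspan1 gave 0.044, near 0 and of the other sign, and averaging both gave -0.45.

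Among the secreted proteins Apol7a stood apart from the rest. Apol7a, of the apolipoprotein L family, read 3.32, 4.35 and 5.03 in the labelled tumorigenic arrays of mice 1, 2 and 3, against 7.55, 7.81 and 7.52 in the labelled nontumorigenic arrays. Its difference of -3.40, a 10.5-fold lower level, was the lowest of the 32 members, and no array of the labels overlapped. The other 4 measured members overlapped, and none of them was lower in all 3 mice. Wfdc2, a secreted protein with whey acidic protein domains, read 4.31, 9.30 and 8.26 in the labelled tumorigenic arrays, against 7.20, 7.03 and 7.70 in the labelled nontumorigenic ones. It was higher under the tumorigenic label in mice 2 and 3 and lower in mouse 1, so its difference of -0.019 hides the widest spread of any member. Its relative Wfdc18 read 10.55, 12.73 and 12.01 in labelled tumorigenic arrays, against 12.80, 12.73 and 12.91 in labelled nontumorigenic arrays, with mouse 2 at the same level under both labels. The siderophore-binding protein Lcn2 read 10.07, 11.87 and 11.24 in labelled tumorigenic arrays, against 11.81, 11.97 and 11.21 in labelled nontumorigenic arrays, and the milk fat globule protein Mfge8 read 11.23, 11.45 and 11.27 in labelled tumorigenic arrays, against 11.61, 11.30 and 11.47 in labelled nontumorigenic arrays. Lcn2 was low in mouse 1 alone, and Mfge8 differed little anywhere.

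**Figure D2:**
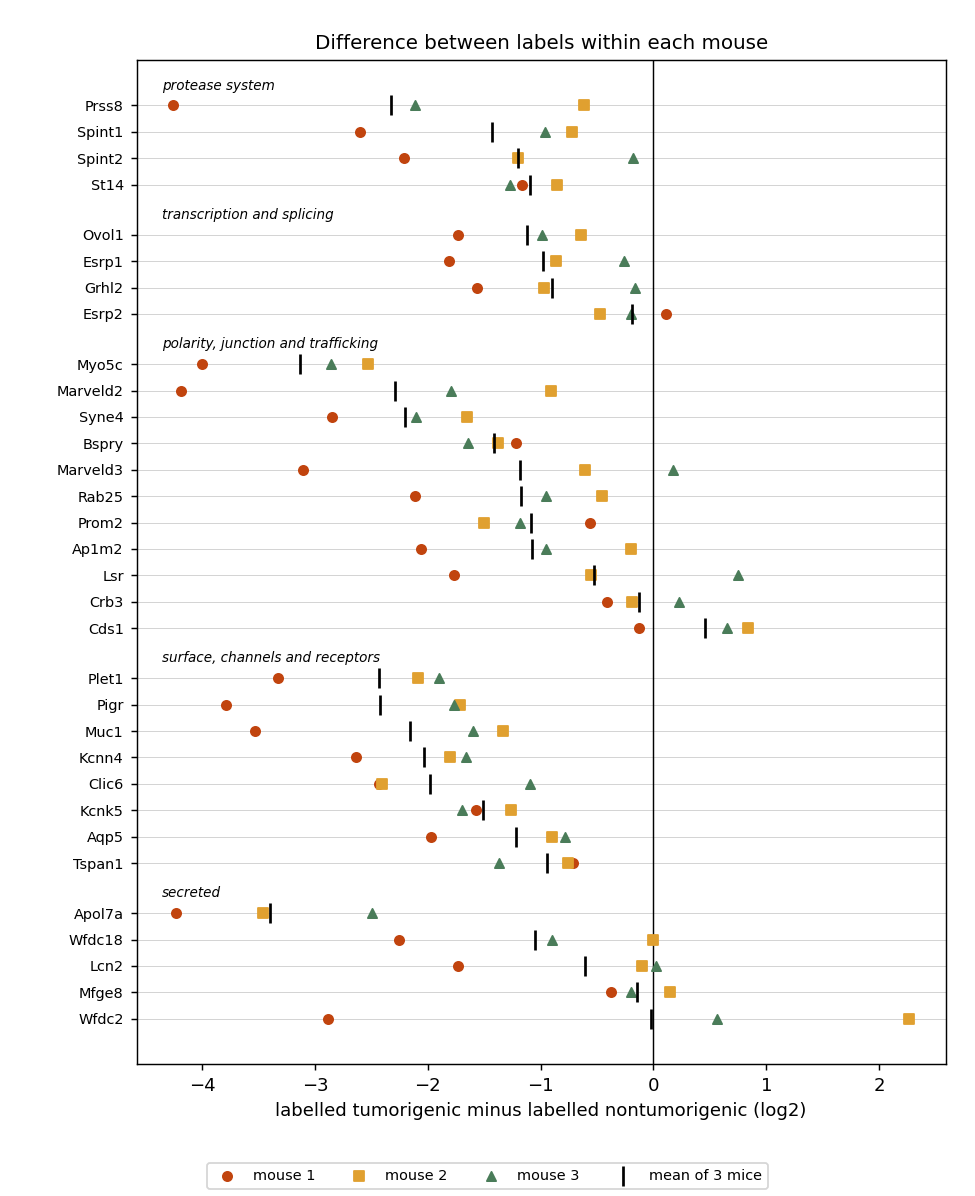
Difference between the labelled tumorigenic and the labelled nontumorigenic array of the same mouse (log2, horizontal axis) for each member, with 1 symbol per mouse and a bar at the mean of the 3 mice. Symbols left of 0 are lower under the tumorigenic label: all 8 surface proteins lie left of 0 in every mouse, and Wfdc2 and Lsr lie on both sides.

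The labelled tumorigenic array of mouse 1, which had the highest leukocyte mean, carried the lowest values of most members. It was the lowest of the 3 labelled tumorigenic arrays in 29 of 32 members, where 39.0% of all genes had that order, and the lowest of all 6 arrays in 27 members, where 23.9% of all genes did. With that array left out, the member median was -0.74, 30 members were negative, and 16 members had both other labelled tumorigenic arrays below every labelled nontumorigenic array, where 7.86% of all genes did. The labelled tumorigenic array of mouse 3, with the lowest leukocyte mean of its label, lay below all 3 labelled nontumorigenic arrays in 18 of 32 members, where 22.0% of all genes did. These counts come from arrays whose values chose the members, so they are a description. The reading of 1 array, that of mouse 3 under the tumorigenic label, was added after the data were seen. On that array Grhl2, Esrp1, Spint1, Spint2, Lsr and Lcn2 were within or above the range of the labelled nontumorigenic arrays, while Apol7a, Myo5c, Kcnn4, Plet1 and Syne4 were below it.

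Members also varied more between mice under the tumorigenic label. The median SD over 3 arrays was 0.83 log2 units under the tumorigenic label and 0.33 under the nontumorigenic label, while over all genes it was 0.30 under the tumorigenic and 0.27 under the nontumorigenic label. The SD was larger under the tumorigenic label in 24 of 32 members, where 54.6% of all genes had that order. This order was not particular to the members. It held for 13 of 13 luminal markers, with median SDs of 1.12 under the tumorigenic and 0.21 under the nontumorigenic label. It also held for 18 of 20 epithelial identity genes and 15 of 15 leukocyte markers, but for only 2 of 10 endothelial markers. Wfdc2 had the widest spread, 2.63 under the tumorigenic label and 0.35 under the other, followed by Prss8 at 1.79 under the tumorigenic and 0.29 under the nontumorigenic label. Prom2 had the widest spread under the nontumorigenic label, with an SD of 1.15 in the labelled tumorigenic arrays and 1.34 in the labelled nontumorigenic arrays.

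**Figure D3:**
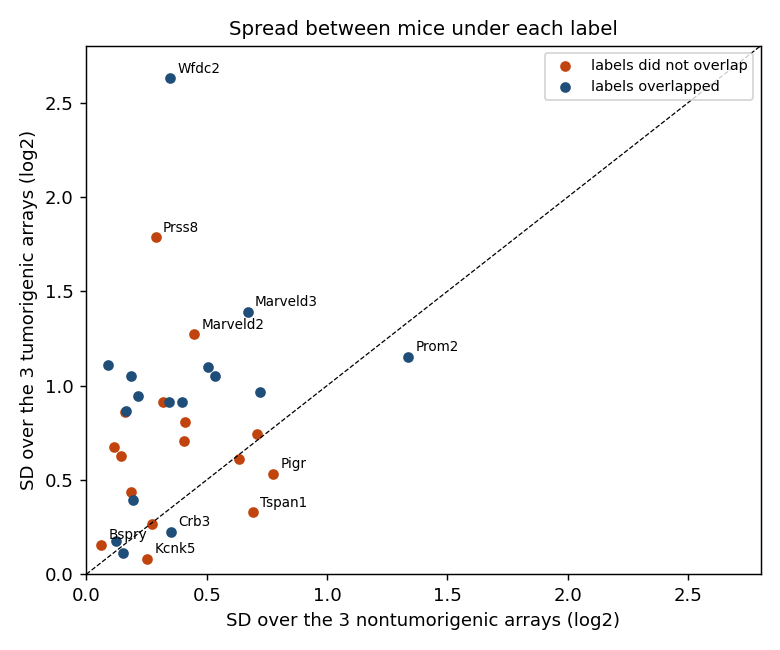
SD of each member over the 3 labelled tumorigenic arrays (vertical axis, log2 units) against its SD over the 3 labelled nontumorigenic arrays (horizontal axis), with a dashed line where they are equal and colours for members whose labels did or did not overlap. Most points lie above the line, with Wfdc2 highest, while Kcnk5, Bspry and Crb3 lie near the lower left corner.

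Members were next set against common epithelial genes on the same array. The mean of Cdh1 (E-cadherin), Epcam (an epithelial adhesion molecule) and the simple-epithelial keratins Krt8 and Krt18 was 8.36, 10.23 and 10.43 in the labelled tumorigenic arrays of mice 1, 2 and 3, against 10.83, 10.80 and 11.08 in the labelled nontumorigenic arrays, a difference of -1.23. Subtracting this mean raises the difference between the label means by the same amount for every gene. Within mice it raises the difference most in mouse 1, so the overlap of arrays can change as well. This scale was chosen after the values were seen. On that scale the member median was 0.053, 13 members were negative and 19 positive. Over all genes the median on that scale was 1.24 and 1.55% were negative, so the sign there is set largely by the scaling. The members were chosen by this comparison and the scaling also lowers the share of all genes that lie below, so the next count is a description. Arrays of 7 members still did not overlap and lay lower under the tumorigenic label, where 0.24% of all genes did. These were Apol7a, Myo5c, Plet1, Prss8, Marveld2, Syne4 and Muc1, with relative differences of -2.17, -1.90, -1.21, -1.10, -1.06, -0.97 and -0.93. Pigr, Kcnn4 and Spint1 were also lower in all 3 mice on that scale, at -1.20, -0.80 and -0.20, with overlapping arrays. Grhl2, Esrp1, Ovol1, Rab25, Spint2 and Ap1m2 had relative differences of 0.33, 0.25, 0.11, 0.057, 0.033 and 0.16. These 6 had slightly smaller differences than the mean of the 4 common epithelial genes, while the 7 named above had larger ones. Whether the members and the 4 genes differ was not tested.

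**Figure D4:**
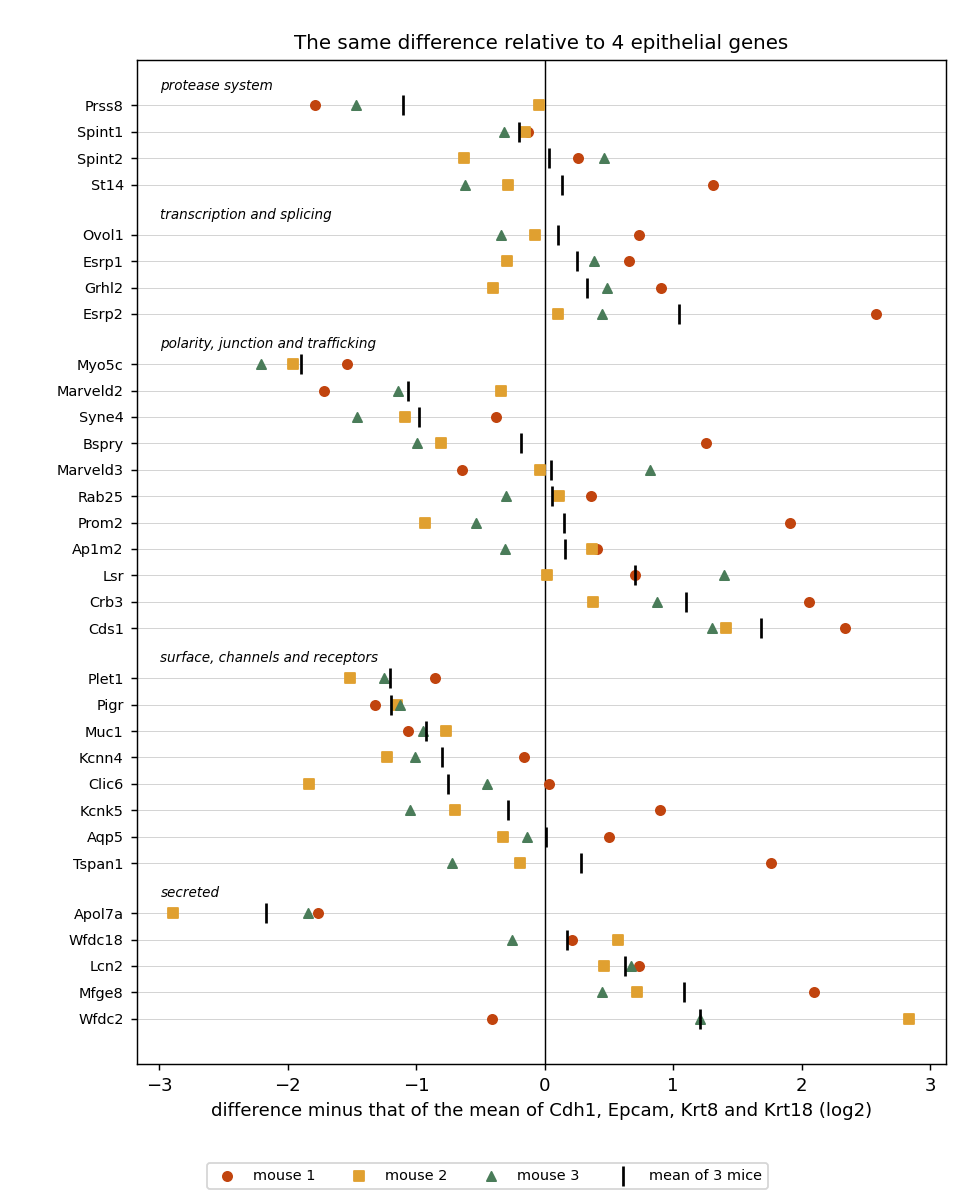
Difference between labels within each mouse for each member, minus the same difference of the mean of Cdh1, Epcam, Krt8 and Krt18 (log2, horizontal axis), with 1 symbol per mouse and a bar at the mean of the 3 mice. Apol7a, Myo5c, Plet1, Pigr and Muc1 lie left of 0 in every mouse, while the 4 transcription and splicing factors have their means at or right of 0.

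Other genes of the same biology were tested by limma with p-values adjusted over all 15027 genes, of which 0 passed, so each count of calls here is 0 in both directions. An unadjusted limma p below 0.05 was found for 3.27% of all genes on the lower side and 5.23% on the higher side. Of 20 measured epithelial identity genes, 9 had an unadjusted p below 0.05 on the lower side and 0 on the higher side, with a median difference of -1.49. In this list Cdh1 read 9.30, 9.58 and 10.89 in the labelled tumorigenic arrays of mice 1, 2 and 3, against 10.24, 9.93 and 10.47 in the labelled nontumorigenic arrays, with its highest value in mouse 3 under the tumorigenic label. Epcam read 6.43, 8.06 and 9.34 in labelled tumorigenic arrays, against 9.23, 9.64 and 9.93 in labelled nontumorigenic arrays, a difference of -1.66 (limma adjusted p = 0.599). Krt8 and Krt18 had differences of -1.60 and -1.37 (limma adjusted p = 0.597 and 0.634). The Grhl2 relatives Grhl1 and Grhl3 had -2.22 and -0.82, and the Ovol1 relative Ovol2 had 0.34 (limma adjusted p = 0.522, 0.635 and 0.675).

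Of 21 measured genes of the core polarity complexes, 2 had an unadjusted p below 0.05 on the lower side and 0 on the higher side, 14 were negative, and the median was -0.18. Pard6b, a Par complex scaffold, read 4.72, 5.09 and 6.01 in the labelled tumorigenic arrays of mice 1, 2 and 3, against 6.44, 7.84 and 7.63 in the labelled nontumorigenic arrays, a difference of -2.03 (limma adjusted p = 0.424). Its partners Pard3 and the kinase gene Prkci had 0.44 and -0.47. The Crumbs partners of Crb3, Mpp5 (also called Pals1) and Patj, had 0.058 and -0.73, and the basolateral Scrib and Llgl2 had -0.046 and -0.12. For these 6 genes limma gave adjusted p-values from 0.632 for Patj up to 0.967 for Mpp5.

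Trafficking partners had a median of 0.14 over 15 genes, with 2 unadjusted calls on the lower side and 0 on the higher side. Ap1m1, the ubiquitous counterpart of Ap1m2, had a difference of 0.18 and Rab11a, the general relative of Rab25, 0.50 (limma adjusted p = 0.846 and 0.676). Myo5b, an apical recycling myosin related to Myo5c, read 3.71, 6.45 and 6.08 in the labelled tumorigenic arrays, against 7.29, 6.20 and 6.86 in the labelled nontumorigenic arrays, a difference of -1.37 (limma adjusted p = 0.671). Whether these genes differ from the members related to them was not tested.

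Proteases and targets of the matriptase system had a median of -0.23 over 13 genes, with 2 unadjusted calls on the lower side and 1 on the higher side. The receptor Met had a difference of -1.23, its ligand Hgf, which such proteases activate, 0.92, and the sodium channel subunit Scnn1a -0.23 (limma adjusted p = 0.608, 0.634 and 0.813). F2rl1 had no probe set that passed the filter under that symbol. The 7 repressors of epithelial genes had a median of 0.24, with 0 unadjusted calls in either direction. Zeb1 read 11.05, 10.61 and 9.90 in the labelled tumorigenic arrays of mice 1, 2 and 3, against 10.17, 9.90 and 10.27 in the labelled nontumorigenic arrays, a difference of 0.41. Zeb2, Snai1 and Snai2 had 0.087, 0.53 and -0.12, with limma adjusted p-values from 0.76 for Zeb1 up to 0.966 for Zeb2. On the labelled tumorigenic array of mouse 1 Zeb1 and Zeb2 had their highest and Snai2 its lowest value of the 6 arrays, so the repressors had no common order over the arrays.

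Beside the members, 13 luminal marker genes were lower under the tumorigenic label in 13 of 13 cases. This list holds no member but shares 12 of its 13 genes with the epithelial identity list of 22, the 4 common epithelial genes among them, so these are not separate readings. Their median difference was -1.66, and within mice 1, 2 and 3 it was -2.90, -0.88 and -1.34. Milk protein genes, 10 of 10 lower, differed by -2.12 at the median, and in the same order of mice by -2.75, -2.23 and -0.84. The members' order over mice, with the lowest median in mouse 1, then mouse 3, then mouse 2, was that of the luminal markers, while milk genes had their smallest difference in mouse 3. Basal markers Krt5, Krt14 and Krt17 had differences of 0.19, 0.55 and 0.65 (limma adjusted p = 0.933, 0.812 and 0.679). Krt5 and Krt14 were lower under the tumorigenic label in mouse 1, at -0.58 and -0.61. Of the 10 basal markers 8 were positive and 2 negative, with medians of -0.054, 0.13 and 1.28 within mice 1, 2 and 3. Thy1 had a difference of 0.24 (limma adjusted p = 0.898). In mice 1, 2 and 3 Thy1 read 10.83, 10.51 and 9.33 under the tumorigenic label, against 10.25, 9.67 and 10.04 under the other. The labelled tumorigenic array of mouse 3, from a gate for Thy, thus lay below every labelled nontumorigenic array. 

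**Figure D5:**
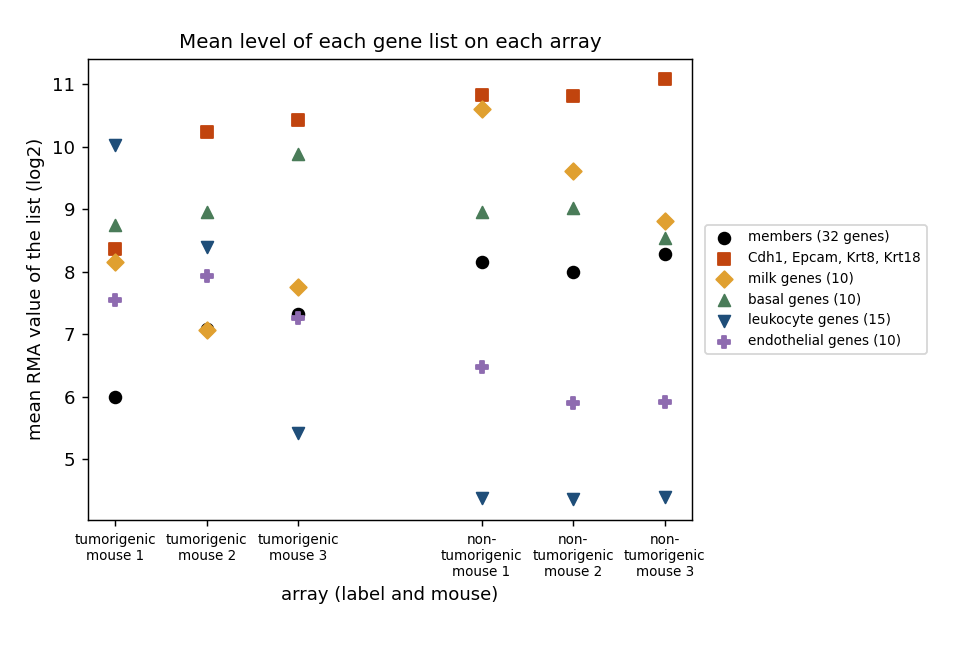
Mean RMA value (log2, vertical axis) of the 32 members and of 5 marker lists on each array (horizontal axis, labelled tumorigenic arrays at the left). Members and the 4 common epithelial genes are lowest on the labelled tumorigenic array of mouse 1, where leukocyte genes are highest at 10.02. Levels of different lists are not comparable, since probe sets differ in brightness.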

How the data were processed

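Transcript levels of 3 labelled tumorigenic and 3 labelled nontumorigenic sorted populations, 1 of each per mouse, were measured on Affymetrix arrays from amplified total RNA. The deposited table holds a log2 value for each probe set and array. RMA, the robust multi-array method that corrects background, makes arrays comparable and summarises probes, is named in the submitters' processing notes. The version of RMA is not given in the sources used here, and the log2 scale was read from the values, which lay between 1.59 and 13.87. Precision is limited by the number of arrays.

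Of 45101 probe sets, 64 were controls and 34945 of the others had 1 gene symbol. The 25% with the lowest mean were left out (below 2.98), and the brightest probe set, by its mean on all 6 arrays, stood for each of 15027 genes. All 32 members passed this filter. Genes were compared by limma (version 3.58.1, R 4.3.3) with Benjamini-Hochberg adjustment at 0.05 and no covariate, a step tested on simulated data. Values are given per array, or as the SD over 3 arrays. The members and lists, and the genes named from them, were chosen with earlier results of these data known. All members are named, and of the other lists the genes set out with the design. By the labels, tumour cells of both populations share an animal, so mouse numbers pair the arrays (same-mouse deviations correlated at 0.079, 0.136 and 0.086 across genes). Alternatives were the mouse as a block, other filters and priors, renewed quantile normalisation, median centring, other ways to choose a probe set, and leaving out each array. An exact permutation test of 3 arrays against 3 cannot go below 0.1 and was not used.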

Additional observations from a re-analysis of the deposited data

How the results depend on the processing

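With the mouse as a replicate block, the member median stayed at -1.18, 0 genes passed in limma (1435 at an unadjusted p below 0.05, against 1277 without the block), and the block changed no call. Renewed quantile normalisation, median centring, other dim filters, averaging the probe sets of a gene and the probe set with the highest variance left 31 of 32 members negative and gave medians between -1.20 and -1.08 and 16 to 18 members with no overlap. Leaving out 1 array at a time gave medians between -1.51 and -0.74 and 30 or 31 negative members. Leaving out both arrays of mouse 1, added after the data were seen, gave a median of -0.84 and 28 negative members. In that setting 17 members were without overlap, a condition easier to meet with fewer arrays under each label. The share of all genes that met it was not computed, so the 17 cannot be set beside the counts from all arrays. Relative to Cdh1, Epcam, Krt8 and Krt18, also added later, the member median was 0.053, 13 members were negative and 7 had no overlap. On that scale 18 members changed sign, among them Aqp5 (0.013), Rab25 (0.057), St14 (0.13) and Tspan1 (0.28), whose arrays did not overlap as deposited. That scale moves the difference between the label means upward by the same amount for all genes. On it 1.55% of all genes were negative, so these signs follow from its construction. Within mice it moves mouse 1 most, so the overlap of arrays on it also depends on its construction. The number of genes passing limma was 0 as reported, 1 (Ramp2, no member, named after its value was seen) with the mean of probe sets and again with no dim filter, and between 0 and 18 when 1 array was left out. The 18 came without the labelled tumorigenic array of mouse 3 and held 1 member, Clic6. The cause was not tested. Probe sets near the dim limit carry little information, which bears on Prss8 and Marveld3 in mouse 1.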
